A study of Mus musculus with 12 samples.

Results

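The mRNAs of 10 effectors of microRNA silencing were followed in mouse embryonic stem cells (ESCs) with and without Dgcr8: the 4 Argonaute genes Ago1, Ago2, Ago3 and Ago4, the 3 scaffold genes Tnrc6a, Tnrc6b and Tnrc6c, and the repressor genes Ddx6, Eif4enif1 and Lsm14a. The genes were chosen by name. All 10 were found among the 51467 gene rows, and all 10 were among the 14033 genes tested, the filter being a level of 3 CPM (reads of a gene scaled by the depth of its library) in 3 or more of the libraries. The 4 groups were wild-type ESCs (the V6.5 line) and ESCs labelled DGCR8 KO, each measured as total RNA and as RNA that had taken up 4-thiouridine (4sU), with 3 replicates a group and 12 libraries in all. Both genotypes were grown with serum, LIF and the inhibitors PD0325901 and CHIR99021, and all cultures, controls included, received 500 uM 4sU for 30 min. Captured 4sU RNA stands for nascent transcription, rRNA-depleted total RNA for the steady state, and the ratio of total to 4sU signal for mRNA stability. Each genotype is 1 cell line, so line and genotype cannot be told apart, and the labels do not say that replicates were separate cultures: p-values measure the spread between these libraries, which may be technical. In bulk RNA, fewer cells of a type and less RNA per cell cannot be told apart.

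A microRNA acts by guiding an Argonaute protein to a partly complementary site, usually in the 3′ UTR of an mRNA. Argonaute binds a TNRC6 (GW182) scaffold, which recruits the PAN2-PAN3 and CCR4-NOT deadenylases. CCR4-NOT in turn binds the helicase DDX6, which works with the eIF4E-binding protein 4E-T (encoded by Eif4enif1), LSM14A and the decapping enzymes. DDX6 has been implicated in both translational repression and decay. For ESCs without DDX6, the paper reports higher translation of microRNA targets with little change in their mRNA stability. DGCR8 is the partner of DROSHA that recognises primary microRNA transcripts, so cells without it lack most microRNAs while the effector genes themselves are intact.

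The 4sU libraries held 4593914 to 6005526 counts (wild-type) and 4775267 to 4998675 counts (KO), and the total libraries 6873708 to 9295245 counts (wild-type) and 7184551 to 9215024 counts (KO). Dgcr8 itself stood at 101, 111 and 92.5 CPM in wild-type total RNA and at 33.6, 34.1 and 32.0 CPM in KO total RNA, lower in every library labelled KO, although the source field of the KO samples reads DDX8KO. All 8 ESC markers (Esrrb, Klf4, Nanog, Pou5f1, Sall4, Sox2, Tfcp2l1 and Zfp42) were tested, and summed to 4951 to 5043 CPM in wild-type and 4837 to 4924 CPM in KO total RNA. The sums hide changes in both directions. Each marker differed in total RNA by limma at an adjusted p under 0.05, as did 63.9% of all tested genes. Log2 changes were 0.32 for Sox2, 0.26 for Pou5f1, 0.15 for Zfp42, -0.15 for Tfcp2l1 and -0.17 for Esrrb. They were -0.18 for Nanog, -0.40 for Klf4 and -0.46 for Sall4. The 4 fibroblast feeder markers summed to at most 3.76 CPM in any library. The 4 trophectoderm markers summed to 16.96 to 18.05 CPM in wild-type and 56.9 to 60.3 CPM in KO total RNA, through Krt8 (9.32 and 52.6 CPM). Mean Eomes was lower in KO total RNA (7.72 and 5.95 CPM). Elf5 had no count in any KO library and Cdx2 lay at 0.418 and 0.469 CPM. The 4 epiblast-like cell markers summed to 131 to 144 CPM in wild-type and 89.2 to 93.4 CPM in KO total RNA, mainly through Dnmt3b (114.6 and 61.5 CPM). Pou3f1 was also lower in KO total RNA (5.63 and 1.08 CPM), while Otx2 was higher (16.6 and 28.1 CPM). Fgf5 had at most 1 count in any library. The 4 primitive endoderm markers summed to 6.71 to 8.90 CPM in wild-type and 9.86 to 12.7 CPM in KO total RNA. Mean levels of Pdgfra (0.948 and 4.54 CPM) and Gata4 (4.92 and 6.48 CPM) were higher in KO total RNA. Those of Gata6 (0.596 and 0.226 CPM) and Sox17 (1.49 and 0.408 CPM) were lower. The part of these differences in the results was not tested.

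The 3′ UTRs of the 10 genes were searched for the letters that pair with chosen microRNA families. These are sequences through which an effector could itself be a target, and no microRNA level was measured here. The family named for the ESC-specific cell cycle (ESCC), made by the miR-290 and miR-302 clusters, shares 1 seed. Of the oncomiR-1 cluster, miR-17-5p and miR-20a-5p have a seed shifted by a base. Mature sequences (RefSeq, GRCm38.p6) are shown with the seed, bases 2 to 8, in capitals.
mmu-miR-294-3p: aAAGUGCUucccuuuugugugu
mmu-miR-302b-3p: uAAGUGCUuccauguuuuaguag
mmu-miR-17-5p: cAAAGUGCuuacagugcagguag

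An ESCC site was AGCACTT or GCACTTA on the transcript strand of the longest annotated 3′ UTR (GENCODE M21). The 2 forms overlap in AGCACTTA, which was counted as 1 site, and GCACTTT, the miR-17 site, shares the letters GCACTT with both. Of 11815 tested genes with a 3′ UTR, 21.2% held an ESCC site and 14.9% a miR-17 site. Among the 10 genes, Ago1, Ago3, Tnrc6b and Tnrc6c held 2, 3, 2 and 1 ESCC sites, and the other genes had no such letters in this window. The windows below show all 8 ESCC sites and the miR-17 site of Tnrc6a, the sequences set beside the stability changes later on, with the site in capitals, mm10 coordinates and strand.
Ago1, chr4:126438806-126438835, minus strand: aaggcactatgGCACTTAgctctgaggtga
Ago1, chr4:126435292-126435321, minus strand: tgtatgatgttGCACTTAgcagccatgtgg
Ago3, chr4:126341680-126341709, minus strand: caggcggtgtgAGCACTTggagcccagcca
Ago3, chr4:126338300-126338329, minus strand: actttaattgcAGCACTTAagaggcagagg
Ago3, chr4:126335504-126335533, minus strand: caaatgttaagAGCACTTAttgtgctgtca
Tnrc6b, chr15:80931317-80931346, plus strand: gggaacatgctAGCACTTgtgtgatatccc
Tnrc6b, chr15:80935707-80935736, plus strand: ccttttatcccAGCACTTgagaggcagaag
Tnrc6c, chr11:117762123-117762152, plus strand: gcggccggccgAGCACTTggacgtggtggt
Tnrc6a, chr7:123193608-123193637, plus strand, miR-17 site: ggacgggccctGCACTTTgaacaggctttc

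Long 3′ UTRs often hold such letters. Among tested genes with a 3′ UTR of like length (0.8 to 1.2 times the member's), ESCC letters were present in 51.0% for Ago1 (a 3′ UTR of 4491 bases), 86.2% for Ago3 (12742 bases, 29 genes of like length), 88.4% for Tnrc6b (11609 bases, 43 genes) and 34.6% for Tnrc6c (2588 bases). Ago2 had none in 11064 bases, a length at which 85.7% of 49 genes had some, and Ddx6 had none in 4250 bases, at which 48.1% did. The 3 repressor genes Ddx6, Eif4enif1 and Lsm14a, and Ago4, also had no miR-17 letters. Of genes of like length, 5.0% (for Eif4enif1) to 34.8% (for Ddx6) had some. Ago2 had 1 miR-17 site, as 67.3% of genes of its length had 1 or more. Only Ago2 and Ago3 held let-7 letters (CTACCTC), at 3 sites and 1 site, and 49.0% and 51.7% of genes of like length held some. Only Ago3 held miR-25/92 letters (GTGCAAT), at 2 sites. A match of letters is a description and not a measured site.

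To ask how the effector mRNAs respond to the loss of microRNAs, total RNA was compared between genotypes first. The Argonaute and TNRC6 genes were higher in KO cells with the exception of Ago2, and the 3 genes of the DDX6 module were lower. By limma with Benjamini-Hochberg adjustment over all 14033 genes, 6 members were higher and 3 lower in Dgcr8 KO at an adjusted p under 0.05, against 27.2% and 36.7% of all tested genes called in these directions (63.9% in all). Ago1 and Tnrc6b also passed an absolute log2 change of 1, which 17.2% of tested genes did. The 3 KO libraries lay wholly above the wild-type libraries for 6 members and wholly below for 3, and 68.8% of all tested genes had no overlap between genotypes in total RNA. The median log2 change was 0.46 over the 10 members and -0.09 over all tested genes.

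**Figure D1:**
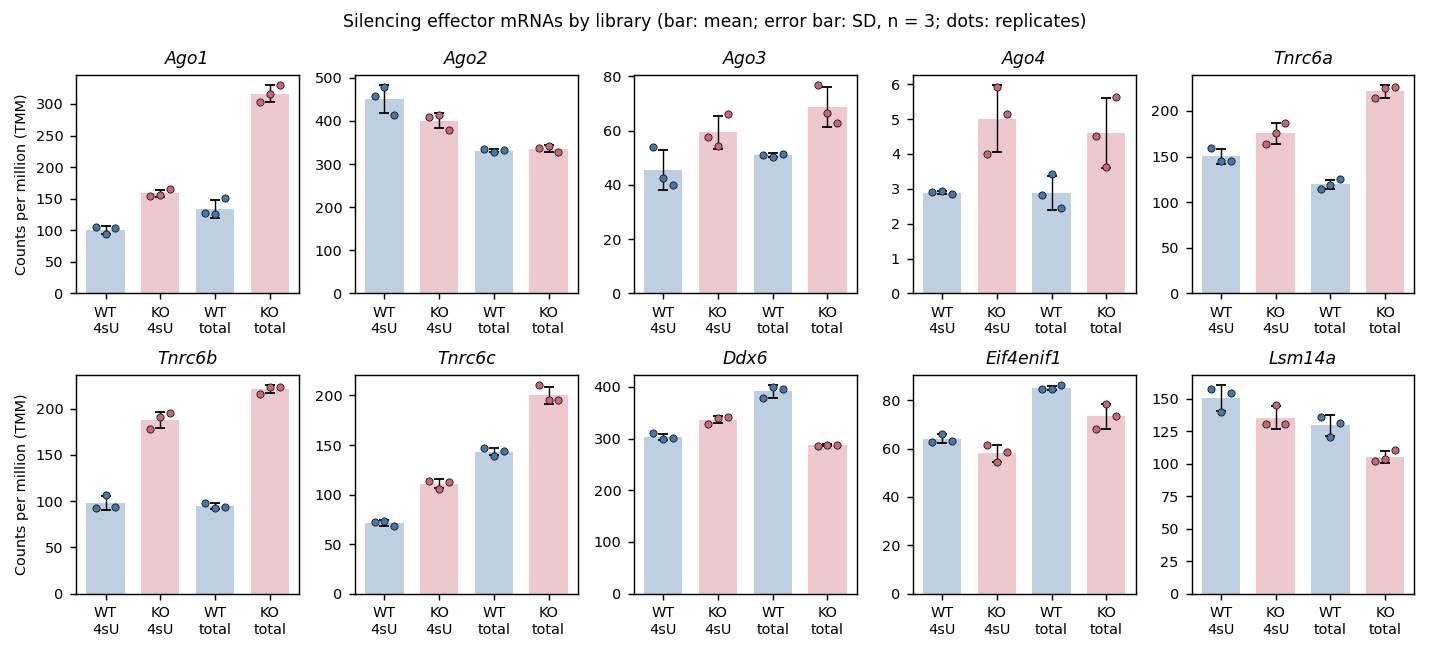
Level of each effector mRNA by group, in CPM scaled by TMM factors (each panel has its own axis from 0), with the 3 replicates as dots, their mean as a bar and the SD as the error bar. Ago1 stood at 303 to 330.1 CPM in KO total RNA against 125 to 151 CPM in wild-type, Ago2 overlapped between genotypes in total RNA, and Ddx6 was lower in KO total RNA but higher in KO 4sU RNA.

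Ago1 (ENSMUSG00000041530.16, chromosome 4, 126435012 to 126468583, minus strand) encodes an Argonaute that silences without cutting its target. It measured 127, 125 and 151 CPM in wild-type total RNA and 303, 315 and 330.1 CPM in KO total RNA. Every KO library was above every wild-type library, and the third wild-type library was the highest of its group. The log2 change was 1.23 (SE 0.0607, limma adjusted p = 1.11e-17; edgeR quasi-likelihood adjusted p = 2.44e-18), a 2.35-fold level, and 92.7% of tested genes had a lower log2 change.

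Ago2 (ENSMUSG00000036698.10, chromosome 15, 73095844 to 73184840, minus strand) encodes the Argonaute that can slice a fully paired target. It stood at 334, 328 and 331 CPM in wild-type and at 338, 342 and 327 CPM in KO total RNA, so the groups overlapped. The log2 change of 0.02 (95% interval -0.09 to 0.12) did not pass the test (limma adjusted p = 0.760). In a fit to the 6 total libraries alone the log2 change was 0.11, with a limma adjusted p of 0.0115.

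Ago3 and Ago4 lie beside Ago1 on the minus strand of chromosome 4, Ago3 at 126332732 to 126429556 and Ago4 at 126489541 to 126533472. Ago3 measured 51.2, 50.1 and 51.6 CPM in wild-type and 76.9, 66.7 and 62.8 CPM in KO total RNA, with no overlap. Its log2 change was 0.43 (SE 0.0871, limma adjusted p = 6.07e-05). Ago4 was the least abundant member, at 2.81, 3.41 and 2.44 CPM in wild-type and 4.51, 3.63 and 5.63 CPM in KO total RNA. The KO libraries were all above the wild-type ones, with a log2 difference of 0.64 (SE 0.247, limma adjusted p = 0.0242) that no longer passed without wild-type replicate 1 (0.62), wild-type replicate 3 (0.50) or KO replicate 3 (0.51). Neighbours on the chromosome thus differed in their log2 change in total RNA, from 0.43 for Ago3 to 1.23 for Ago1, and these differences between genes were not tested.

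The 3 scaffold genes were all higher in KO total RNA. Tnrc6a (chromosome 7, 123124181 to 123195296, plus strand) measured 115, 119 and 125 CPM in wild-type and 214, 225 and 226 CPM in KO libraries. Tnrc6b (chromosome 15, 80711319 to 80941086, plus strand) measured 97.9, 92.3 and 94.1 CPM in wild-type and 216, 223 and 223 CPM in KO libraries. Tnrc6c (chromosome 11, 117654289 to 117763439, plus strand) measured 147, 139 and 144 CPM in wild-type and 210.3, 195 and 196 CPM in KO libraries. The genotypes did not overlap for any of the 3 genes, and the spread within each group was small beside the gap. Tnrc6b changed most, by 1.22 log2 units (SE 0.0584, limma adjusted p = 5.13e-18), a 2.33-fold level. Tnrc6a changed by 0.89 (SE 0.0583, limma adjusted p = 1.49e-14) and Tnrc6c by 0.49 (SE 0.0542, limma adjusted p = 2.63e-09).

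The 3 genes of the DDX6 module moved the other way in total RNA. Ddx6 (chromosome 9, 44604892 to 44640731, plus strand), the helicase that links CCR4-NOT to translational repression, measured 377, 399 and 396 CPM in wild-type and 286, 288 and 288 CPM in KO total RNA. The KO libraries were all below the wild-type ones and lay within a few CPM of each other. In log2 units Ddx6 dropped by 0.45 (SE 0.0456, limma adjusted p = 4.14e-10; edgeR quasi-likelihood adjusted p = 2.77e-09), to 0.734 of the wild-type level.

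Eif4enif1 (chromosome 11, 3202392 to 3244588, plus strand) measured 84.6, 84.5 and 86.2 CPM in wild-type and 68.2, 78.5 and 73.3 CPM in KO total RNA. Lsm14a (chromosome 7, 34344646 to 34389687, minus strand), which encodes a DDX6-binding component of processing bodies, measured 136, 121 and 132 CPM in wild-type and 102, 104 and 110.4 CPM in KO total RNA. Neither gene overlapped between genotypes, though the gap was narrower than for Ddx6. The log2 changes were -0.22 for Eif4enif1 (SE 0.0656, limma adjusted p = 0.00407) and -0.30 for Lsm14a (SE 0.0643, limma adjusted p = 0.000157). The Eif4enif1 change no longer passed without KO replicate 1 (-0.16) or in the fit to total libraries alone (-0.13), and that of Lsm14a passed in all alternatives tried.

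Nascent RNA was compared next. Of the 10 members, 7 were higher and 2 lower in KO 4sU RNA by limma at an adjusted p under 0.05, against 28.3% and 28% of all tested genes (56.3% in all), and no member passed a log2 change of 1, which 14.8% of tested genes did. Without wild-type replicate 2, Tnrc6b passed that limit, so the count was then 1. The median log2 change in 4sU RNA was 0.30 over the members and -0.02 over all tested genes. For 7 members the KO 4sU libraries lay wholly above and for 2 wholly below the wild-type ones, where 59% of tested genes had no overlap.

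Tnrc6b had the largest nascent change of the 10. It measured 92.8, 107 and 94.1 CPM in wild-type and 178, 191 and 195 CPM in KO 4sU RNA. The log2 change was 0.95 (SE 0.0644, limma adjusted p = 7.03e-14), beside 1.22 in total RNA.

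Ago1 measured 105.5, 93.7 and 104 CPM in wild-type and 155, 156 and 165 CPM in KO 4sU RNA, without overlap. The nascent log2 change was 0.65 (SE 0.0731, limma adjusted p = 6.40e-09). Tnrc6c went from 72.5, 73.4 and 68.0 CPM to 114, 105 and 113 CPM, a nascent log2 difference of 0.64 (SE 0.0701, limma adjusted p = 3.81e-09). Tnrc6a measured 159.7, 146 and 145 CPM in wild-type and 164, 176 and 187 CPM in KO 4sU RNA. Its libraries did not overlap, but the lowest KO and the highest wild-type value were close, and the nascent log2 change was 0.22 (SE 0.0629, limma adjusted p = 0.00326).

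The other Argonautes differed among themselves in nascent RNA. Ago2 measured 459, 479 and 414 CPM in wild-type and 409, 413 and 379.8 CPM in KO 4sU RNA, with the groups barely apart. Its nascent log2 change of -0.17 (SE 0.0525, limma adjusted p = 0.00748) no longer passed without KO replicate 3 (-0.11) or in the fit to 4sU libraries alone (-0.16). Ago3 measured 53.9, 42.7 and 40.0 CPM in wild-type and 57.6, 54.4 and 66.2 CPM in KO 4sU RNA. The first wild-type library of Ago3 almost reached the lowest KO library, and the nascent log2 change was 0.38 (SE 0.104, limma adjusted p = 0.00236). Ago4 measured 2.90, 2.93 and 2.85 CPM in wild-type and 4.00, 5.91 and 5.14 CPM in KO 4sU RNA, from 14 to 31 counts per library. Its nascent log2 change of 0.77 (SE 0.288, limma adjusted p = 0.0238) was lost without wild-type replicate 1 (0.76), wild-type replicate 3 (0.75) or KO replicate 2 (0.65).

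Nascent Ddx6 moved opposite to its total RNA. It measured 309.9, 298 and 300.1 CPM in wild-type and 328, 339.9 and 342 CPM in KO 4sU RNA, with every KO library above every wild-type one. The nascent log2 change was 0.15 (SE 0.0494, limma adjusted p = 0.00951). This rise did not pass with RLE scaling (0.09), upper-quartile scaling (0.10) or DESeq2 (0.09). Eif4enif1 measured 62.6, 66.1 and 63.3 CPM in wild-type and 61.4, 54.4 and 58.4 CPM in KO 4sU RNA. Its nascent log2 change of -0.14 did not pass (limma adjusted p = 0.138), though it passed in 2 of 17 alternatives. Lsm14a measured 158, 139 and 155 CPM in wild-type and 130.3, 146 and 130.2 CPM in KO 4sU RNA, so the groups overlapped. Its nascent log2 change of -0.16 passed narrowly (limma adjusted p = 0.0456) and was lost in 10 of 17 alternatives, among them those without wild-type replicate 1 (-0.13), wild-type replicate 3 (-0.14), KO replicate 1 (-0.12) and KO replicate 3 (-0.11).

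**Figure D2:**
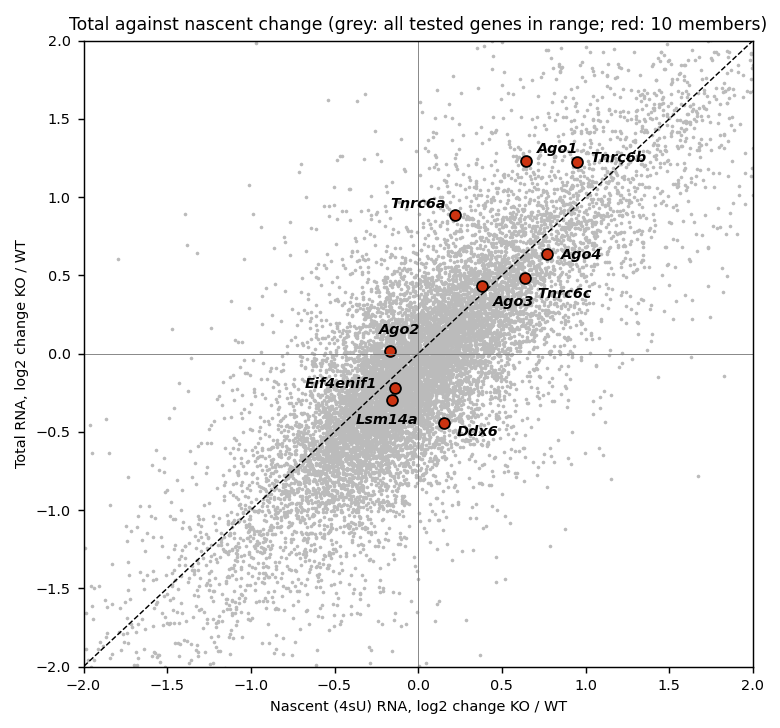
Log2 change in Dgcr8 KO against wild-type in total RNA (vertical) and in 4sU RNA (horizontal), with grey dots for tested genes in range, red dots for the 10 members and a dashed line where both changes are equal. Ago1 and Tnrc6a lie above the line, Ddx6 lies below it in the quadrant of higher nascent and lower total RNA, and Ago3, Ago4 and Tnrc6c lie near the line.

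The change in stability, the genotype by library type interaction of the same limma fit, tested whether total and nascent changes differed. Ago1, Tnrc6a and Tnrc6b rose and Ddx6 fell in their ratio of total to 4sU signal, so 3 members were called higher and 1 lower, against 5.02% and 11.1% of tested genes (16.1% in all), and no member passed a log2 change of 1, which 1.76% of tested genes did. The split of calls over all genes depended on scaling: 704 of 2261 calls were higher with TMM and 1049 of 2009 with RLE factors. The median stability change was -0.01 over the members and -0.09 over all tested genes. Within a replicate, the ratio below is given on the log2 scale relative to the median ratio of all tested genes.

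Tnrc6a had the largest rise in stability of the members. Its relative ratio was -0.56, -0.40 and -0.31 in wild-type and 0.38, 0.35 and 0.29 in KO replicates, so it passed from below to above the median gene. The stability log2 change was 0.66 (SE 0.0858, limma adjusted p = 1.19e-06; edgeR quasi-likelihood adjusted p = 1.03e-06), a higher change than that of 95.5% of tested genes.

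The relative ratio of Ago1 was 0.19, 0.31 and 0.45 in wild-type and 0.96, 1.02 and 1.02 in KO replicates, without overlap. The stability log2 change was 0.59 (SE 0.0950, limma adjusted p = 3.91e-05; edgeR quasi-likelihood adjusted p = 3.11e-05). For Ago1, then, the total change of 1.23 on the log2 scale stood beside a nascent change of 0.65 and a stability change of 0.59.

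For Tnrc6b the relative ratio went from -0.0035, -0.32 and -0.09 to 0.27, 0.22 and 0.21. The second wild-type replicate was the lowest. The stability change of 0.27 (SE 0.0870, limma adjusted p = 0.0289) did not pass without wild-type replicate 2 (0.19), KO replicate 1 (0.24) or KO replicate 2 (0.27). For Tnrc6b a nascent log2 change of 0.95 thus stood beside a stability change of 0.27, and for Tnrc6a a nascent change of 0.22 beside a stability change of 0.66. The difference between the 2 genes was not tested.

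Ddx6 was the only member with a called fall in stability. Its relative ratio was 0.20, 0.31 and 0.31 in wild-type and -0.21, -0.24 and -0.23 in KO replicates. All KO replicates were below all wild-type replicates. The stability log2 change was -0.60 (SE 0.0672, limma adjusted p = 9.94e-08; edgeR quasi-likelihood adjusted p = 3.55e-07), and it passed in all 17 alternatives, from -0.64 to -0.51.

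**Figure D3:**
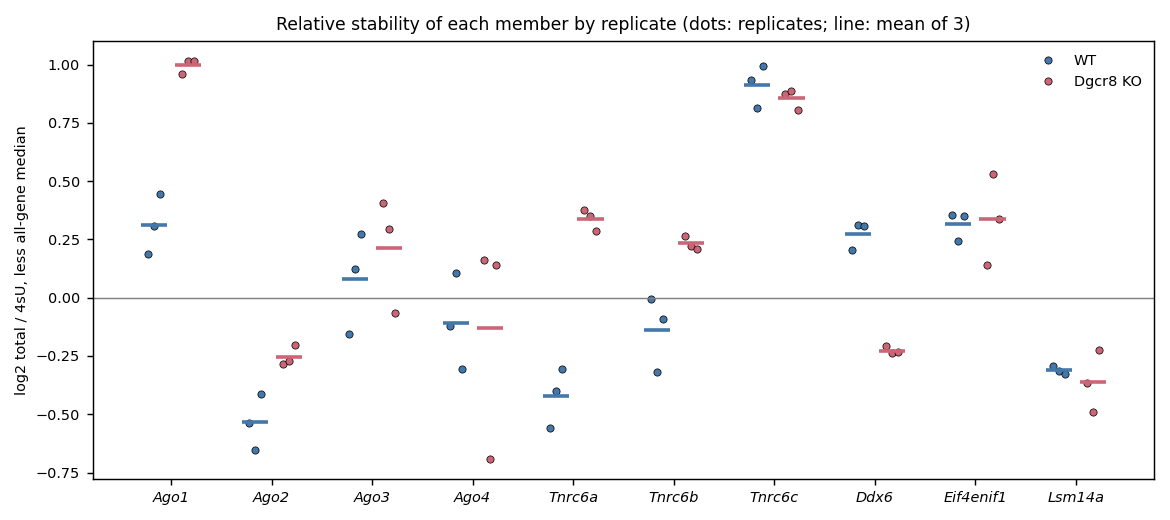
Relative stability of each member (log2 ratio of total to 4sU signal, less the median ratio of all tested genes) by replicate, with blue dots for wild-type, red dots for Dgcr8 KO and a line at the mean of 3. The KO dots lie wholly above the wild-type dots for Ago1, Ago2, Tnrc6a and Tnrc6b and wholly below for Ddx6, whereas those of Ago3, Ago4, Tnrc6c, Eif4enif1 and Lsm14a overlap between genotypes. Without subtraction of the median, Tnrc6c and Lsm14a also lay wholly below in KO. The share of all tested genes without overlap in this ratio was not counted. Lack of overlap in this ratio, here and in the text, thus only describes the values and sets no member apart.

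The other 6 members were not called for stability. Ago2 had relative ratios of -0.54, -0.65 and -0.41 in wild-type and -0.29, -0.27 and -0.20 in KO replicates, which did not overlap. Its stability change of 0.19 (95% interval 0.04 to 0.34) missed the threshold (limma adjusted p = 0.0818) but passed in 6 of 17 alternatives. Among these, the 4sU and total library of a number were treated as a block (0.19, limma adjusted p = 0.0374). Others were RLE scaling (0.28, limma adjusted p = 0.0132) and the fit without wild-type replicate 3 (0.24, limma adjusted p = 0.0225). Tnrc6c was the member with the highest relative ratio in wild-type cells, at 0.94, 0.81 and 0.99, and measured 0.87, 0.89 and 0.81 in KO replicates. The Tnrc6c stability change was -0.15 (95% interval -0.33 to 0.03, limma adjusted p = 0.277).

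The stability change of Ago3 was 0.05 (95% interval -0.22 to 0.33), with a negative sign without wild-type replicate 1 (-0.09) or KO replicate 1 (-0.06). That of Ago4 was -0.13 with an interval of -0.90 to 0.65, too wide at 14 to 40 counts per library to show a change of the size seen for Ago1, and it was 0.14 without KO replicate 2. Eif4enif1 (-0.08, 95% interval -0.29 to 0.13) and Lsm14a (-0.14, 95% interval -0.33 to 0.05) did not pass either, and the sign for Eif4enif1 turned with RLE scaling and with DESeq2 (0.01 in both) and without KO replicate 1 (0.0074).

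**Figure D4:**
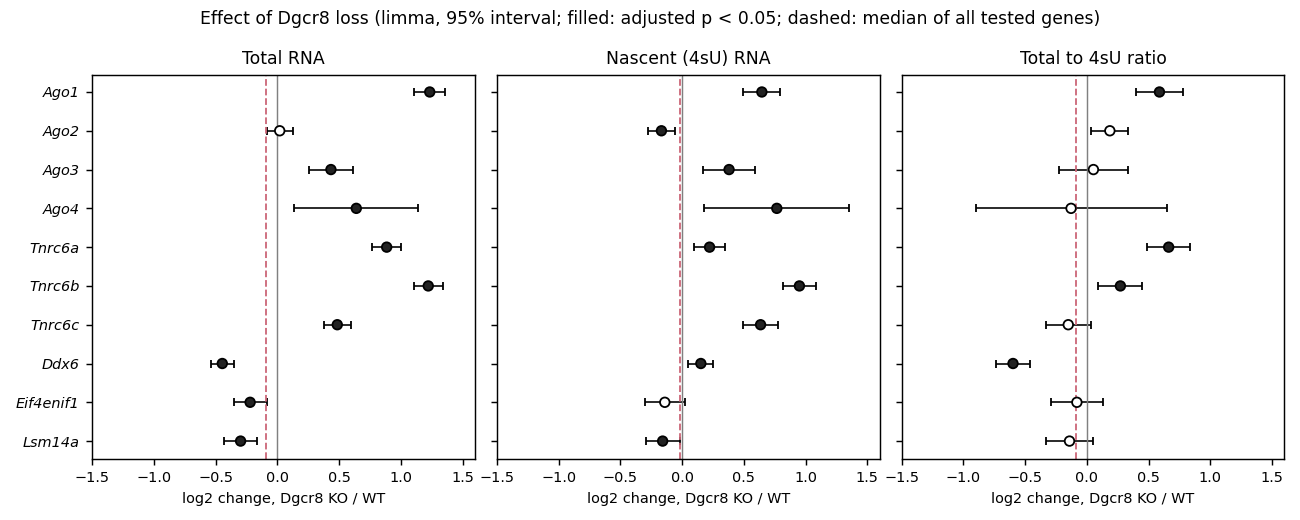
Log2 change in Dgcr8 KO against wild-type for each member in total RNA, 4sU RNA and their ratio, with points for the limma estimate, bars for its 95% interval, filled points for an adjusted p under 0.05 and a dashed red line at the median of all tested genes. Total changes run from -0.45 for Ddx6 to 1.23 for Ago1, nascent changes from -0.17 for Ago2 to 0.95 for Tnrc6b, and stability changes from -0.60 for Ddx6 to 0.66 for Tnrc6a.

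The members with ESCC letters in the 3′ UTR were not all called for stability. Of the 4, Ago1 and Tnrc6b were called more stable, at 0.59 and 0.27 on the log2 scale, and Ago3 and Tnrc6c were not called, at 0.05 and -0.15. Tnrc6a, which had the largest stability rise, had no ESCC letters and 1 miR-17 site, which 20.8% of genes with a 3′ UTR of like length also had. Such miR-17 letters were also found in Ago1, Ago2, Tnrc6b and Tnrc6c (1 each) and in Ago3 (3), among them genes not called for stability. The 4 members with ESCC letters were higher in total and in nascent RNA, as 27.2% and 28.3% of all tested genes were, and so were Ago4 and Tnrc6a, which had none.

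Levels were then compared between genes as CPM per kb of exon. In wild-type total RNA the order was Ddx6 (64.5 ± 1.96 CPM per kb, SD, n = 3), Lsm14a (44.0 ± 2.67), Ago2 (24.2 ± 0.229), Eif4enif1 (20.7 ± 0.233), Ago1 (18.6 ± 1.96), Tnrc6c (15.5 ± 0.420), Tnrc6a (14.6 ± 0.630), Tnrc6b (5.47 ± 0.164), Ago3 (3.27 ± 0.0490) and Ago4 (0.442 ± 0.0752). In that order the ranges over libraries of Eif4enif1 and Ago1 overlapped, as did those of Tnrc6c and Tnrc6a. In KO total RNA, Ago1 (43.8 ± 1.85 CPM per kb) moved to second place after Ddx6 (47.4 ± 0.178), followed by Lsm14a (35.8 ± 1.53), Tnrc6a (27.1 ± 0.844), Ago2 (24.5 ± 0.554), Tnrc6c (21.7 ± 0.928), Eif4enif1 (17.8 ± 1.26), Tnrc6b (12.8 ± 0.250), Ago3 (4.41 ± 0.466) and Ago4 (0.703 ± 0.153), with no overlap between neighbours in this order. Ddx6 and Lsm14a also led the nascent order of both genotypes, and their ranges overlapped in wild-type 4sU RNA (49.9 ± 1.04 and 51.2 ± 3.31 CPM per kb).

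The makeup of both families was different in KO cells. As a share of summed Argonaute CPM per kb in total RNA, Ago1 went from 39.9% ± 2.48 to 59.6% ± 1.64 (SD, n = 3) and Ago2 from 52.1% ± 2.10 to 33.4% ± 1.15. Ago3 stood at 7.04% and 6.02% and Ago4 at 0.956% and 0.957%. In 4sU RNA, Ago2 remained the leading Argonaute in both genotypes, at 65.4% ± 2.58 and 52.4% ± 2.21, against 27.9% ± 2.39 and 39.3% ± 1.47 for Ago1. Summed Argonaute CPM per kb in total RNA was 46.5 ± 1.98 in wild-type and 73.3 ± 1.09 in KO cells. Without division by exon length, Ago2 stayed ahead of Ago1 in KO total RNA (46.3% against 43.6%), so the order of these 2 genes depended on length scaling, whereas the rise of the Ago1 share did not (25.8% in wild-type).

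Among TNRC6 genes, Tnrc6c and Tnrc6a held near-equal shares of wild-type total RNA, at 43.6% ± 0.948 and 41.1% ± 1.42 of CPM per kb. In KO total RNA the share of Tnrc6c was 35.2% ± 1.6 and that of Tnrc6a 44.0% ± 1.3. Tnrc6b went from 15.4% ± 0.478 to 20.7% ± 0.354. Without division by exon length, Tnrc6c, Tnrc6a and Tnrc6b held 40.1%, 33.4% and 26.5% of wild-type and 31.2%, 34.5% and 34.4% of KO total RNA, so the near-equal shares in wild-type cells and the rank of Tnrc6b in KO cells depended on length scaling. In wild-type 4sU RNA the makeup was different, with 57.9% Tnrc6a, 24.3% Tnrc6c and 17.8% Tnrc6b. The summed CPM per kb of the 3 scaffold genes in total RNA was 35.6 ± 0.687 in wild-type and 61.5 ± 0.193 in KO cells.

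**Figure D5:**
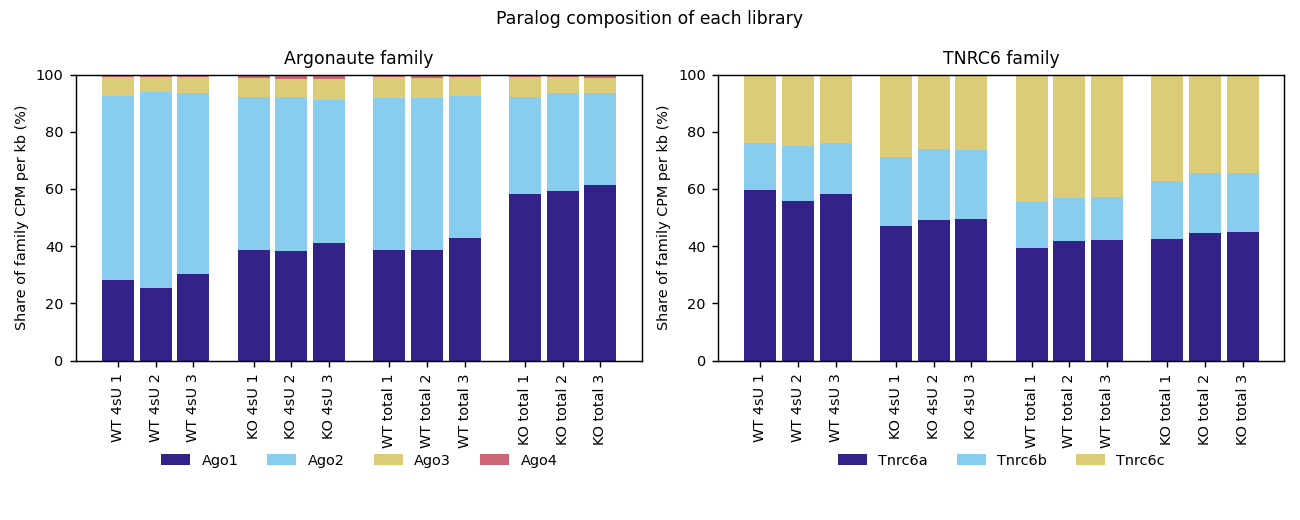
Share of each paralog in the summed CPM per kb of the Argonaute family (left) and the TNRC6 family (right), as stacked bars for each of the 12 libraries, in percent. Ago1 makes up 58.1% to 61.4% of the Argonaute sum in KO total RNA against 38.5% to 42.8% in wild-type total RNA.

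Counts of paralogs could be told apart at most positions. Of the 50-base stretches of annotated transcripts, the read length, those also found in another gene made up 1.74% for Ago1 (shared with Ago2 and Ago3), 3.52% for Ago2, 0.778% for Ago3, 1.19% for Tnrc6a, 0.312% for Tnrc6b and 4.45% for Ddx6 (shared with Gm13410), and 0% for the other 4 genes. Exons of Tnrc6a and Tnrc6b overlapped another gene on the same strand, Gm45846 and Mir5113, over 1.75% and 0.473% of their length.

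The partners of these effectors were read from lists drawn up by function. Of 15 RISC loading factors and Argonaute partners, 4 were higher and 8 lower in KO total RNA, 4 and 7 in nascent RNA, and 1 and 3 in stability (limma, adjusted over all genes). Of all tested genes, 27.2% were higher and 36.7% lower in total RNA, 28.3% and 28% in nascent RNA, and 5.02% and 11.1% in stability. The list's median log2 change in total RNA was -0.17, against -0.09 over all tested genes. Mov10, an RNA helicase that associates with Argonaute, rose most, by 1.88 in total RNA (SE 0.0535, limma adjusted p = 9.30e-24), 1.5 in nascent RNA and 0.38 in stability, and Zswim8, a ubiquitin ligase adaptor for target-directed microRNA decay, had the lowest log2 change in total RNA, -0.77 (limma adjusted p = 2.45e-07). Ajuba, a LIM protein that binds Argonautes, had the lowest stability change of the list, -0.38 (limma adjusted p = 0.000365).

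Of 12 deadenylase genes, 2 were higher and 7 lower in total RNA, 0 and 3 in nascent RNA, and 2 and 1 in stability, where 63.9%, 56.3% and 16.1% of all tested genes were called in either direction. The median log2 change in total RNA was -0.18, against -0.09 over all tested genes. The 2 genes that rose were Cnot6, by 1.07 in total RNA (SE 0.0706, limma adjusted p = 1.43e-14) and by 0.90 in stability (limma adjusted p = 1.82e-07), and its paralog Cnot6l, by 0.89 in total RNA and 0.68 in stability. Both encode catalytic subunits, but the other catalytic subunits of the list did not rise in total RNA: Cnot7 had a log2 change of 0.0011 (limma adjusted p = 0.989), Cnot8 of -0.30 (limma adjusted p = 0.000212) and Pan2 of -0.23 (limma adjusted p = 0.00334). The nascent log2 changes of Cnot6 and Cnot6l were 0.17 and 0.21 and did not pass (limma adjusted p = 0.0642 and 0.0578). Cnot3, a non-catalytic subunit, had the lowest log2 change in total RNA (-0.49) and Cnot9, the subunit that binds TNRC6 tryptophans, the lowest in stability (-0.35, limma adjusted p = 0.00497). Cnot1, the platform that binds DDX6, had a log2 change of -0.26 in total RNA (limma adjusted p = 2.17e-06).

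Of 13 decapping and LSM1-7 genes, 1 was higher and 7 lower in total RNA, 2 and 8 in nascent RNA, and 1 and 5 in stability. Over all tested genes these shares were 27.2% and 36.7%, 28.3% and 28%, and 5.02% and 11.1%. The list's median log2 change was -0.38 in total RNA, against -0.09 over all tested genes. Dcp1b had the highest values of the list in total RNA (0.40, limma adjusted p = 0.194) and in stability (0.42, limma adjusted p = 0.534), and neither passed. Lsm5, of the ring that binds deadenylated 3′ ends, had the lowest log2 change in total RNA, -1.48 (SE 0.258, limma adjusted p = 8.20e-06), while its stability change of -0.67 did not pass (limma adjusted p = 0.284). Counts of Lsm5 were low, at 14 to 27 in KO total and 13 to 17 in KO 4sU libraries. The other ring genes Lsm1, Lsm2, Lsm3, Lsm4 and Lsm6 were lower too, from -0.64 to -0.94 on the log2 scale in total RNA, and Lsm7 did not pass (-0.14).

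Of 11 cap-binding and DDX6 repressor neighbours, 10 were tested, of which 1 was higher and 5 lower in total RNA, 3 and 3 in nascent RNA, and 2 and 2 in stability. The 6 called in total RNA and the 6 called in nascent RNA are near the share of all tested genes called, 63.9% and 56.3%, and 16.1% were called for stability. The median log2 change of the list in total RNA was -0.33, against -0.09 over all tested genes. Gigyf1, an adaptor of the 4EHP cap-binding repressor, rose by 0.92 in total RNA (limma adjusted p = 1.44e-13) and 0.60 in stability (limma adjusted p = 0.000164). Eif4e, the cap-binding protein that 4E-T contacts, had the lowest log2 change in total RNA of the list, -0.51 (limma adjusted p = 4.24e-08), and Patl2, a paralog of the DDX6 partner Patl1, the lowest stability change, -1.23 (SE 0.292, limma adjusted p = 0.00307). Patl2 had only 14 to 28 counts in wild-type 4sU libraries. Its log2 change was 0.89 in nascent RNA (limma adjusted p = 0.00271) and -0.34 in total RNA, which did not pass (limma adjusted p = 0.0581). Of the 3 PIWI-clade genes only Piwil2 passed the filter, and it was higher by 1.10 in total RNA (limma adjusted p = 1.69e-08) and 1.05 in nascent RNA on the log2 scale. Its wild-type 4sU libraries held only 16 to 26 counts.

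The genes whose log2 CPM over the 12 libraries was most like that of a member were listed as a description, since the libraries share genotype and library type. Nearest to Ago2 were Nanos1 (Pearson's r 0.976), Cdyl (0.973) and 2700081O15Rik (0.973). Nearest to Tnrc6a were 9530068E07Rik (r 0.984), Pik3c2b (0.983) and Rictor (0.980). Nearest to Ddx6 were Kcmf1 (r 0.943), D8Ertd738e (0.939) and Usb1 (0.937).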

How the data were processed

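The deposited values were raw read counts per gene, which per the submitters' processing notes, the file header and the methods the authors made with cutadapt 1.14, STAR 2.5.3a (unique reads, mm10) and featureCounts 1.5.3 (reverse strand, GENCODE M14 exons without rRNA genes). Exonic counts alone were used, so unspliced 4sU reads in introns do not enter. The 92 ERCC spike-in rows held 1 count and were left out, so changes are relative to each library and no absolute scale exists. No per-sample column was left unused.

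Groups and replicate numbers came from sample titles. After the study's design, genes with at least 3 CPM in at least 3 libraries were tested with limma 3.58.1 (R 4.3.3) in a model of genotype, library type and their interaction (stability). TMM scaling (edgeR 4.0.16), voom weights and 1 model over all 12 libraries were chosen here, with Benjamini-Hochberg adjustment over all 14033 genes. The paper states that labelled samples were divided after extraction, so 4sU and total libraries come in pairs. The main model did not use this pairing, and the labels do not say that shared numbers mark the pairs. The quasi-likelihood test of edgeR is the usual test for counts. DESeq2 1.42.0, limma-trend, sample weights, other scalings and filters, separate fits, replicate blocks, the fold limit and leaving out each replicate were alternatives. Scripts were tested on simulated data. Every pair of replicates of a group differed by more than sampling noise (chi-square per degree of freedom at least 1.54). CPM is scaled to library size and TMM factor, and exon length is that of the deposited table. Symbols and 3′ UTRs were matched to GENCODE M21 (51274 of 51467 genes).

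The members, lists and naming rule were chosen with earlier results of these data known. Named were the 10 members, Dgcr8, the genes of each list with the highest and lowest log2 change in total RNA and in stability, and the 3 genes nearest to Ago2, Tnrc6a and Ddx6. Cnot6l, Cnot7, Cnot8, Pan2, Cnot1, the Lsm genes besides Lsm5, and the markers were named outside this rule, after their values were seen.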

Additional observations from a re-analysis of the deposited data

Results flagged for a closer look

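In 4 of the 10 genes the genotype effect differed between total RNA and 4sU RNA by the interaction term of limma (Benjamini-Hochberg adjusted over all tested genes). The log2 change of the total to 4sU ratio was 0.59 for Ago1 (adjusted p = 3.91e-05), 0.66 for Tnrc6a (adjusted p = 1.19e-06), 0.27 for Tnrc6b (adjusted p = 0.0289) and -0.60 for Ddx6 (adjusted p = 9.94e-08). For Ago1, Tnrc6a and Tnrc6b both effects were positive and the total one was larger. For Ddx6 they had opposite signs, -0.45 in total RNA and 0.15 in 4sU RNA, although the latter did not pass with RLE or upper-quartile scaling or with DESeq2 (0.09, 0.10 and 0.09). The Tnrc6b difference did not pass without wild-type replicate 2 (0.19), KO replicate 1 (0.24) or KO replicate 2 (0.27).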

How the results depend on the processing

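The counts of members past the adjusted p (9 in total RNA, 9 in 4sU RNA and 4 in stability) ranged from 8 to 9, 7 to 9 and 3 to 5 when 1 replicate was left out, and adding the fold limit left 2, 0 and 0. The fold-limited 4sU count ranged from 0 to 1 in the same fits. Signs turned for stability changes that had not passed the test: Eif4enif1 was 0.0116 with DESeq2 and 0.0086 with RLE scaling, and ranged from -0.19 to 0.01 over all alternatives, 0.0074 being the value without KO replicate 1. Over fits without 1 replicate, Ago3 ranged from -0.0863 (without wild-type replicate 1; -0.06 without KO replicate 1) to 0.19, and Ago4 from -0.29 to 0.14 (without KO replicate 2). The causes were not tested. Ago1, Tnrc6a and Ddx6 kept their stability call in all 17 alternatives (0.52 to 0.68, 0.59 to 0.75 and -0.64 to -0.51). Same-numbered wild-type and KO libraries had deviations correlated from -0.0686 to 0.0694. Whether a number marks a shared batch cannot be told from this, since same-numbered 4sU and total libraries also correlated weakly. With the replicate block, 9, 9 and 4 members were called. Same-numbered 4sU and total libraries correlated from 0.0103 to 0.0767, and a replicate block by culture called 5 for stability. Centring relative stability on protein-coding genes lowered the values of both genotypes alike, for Ago1 from 0.31 to 0.09 in wild-type and from 1.00 to 0.78 in KO cells. Requiring 3 CPM in all 12 libraries removed Ago4, whose 14 to 40 counts per library limit its values. Shares of a family assume that the annotated exon length applies in both genotypes.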
